A study of Homo sapiens with 24 samples.

Results

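MUT10 and MUT35 were grown from single cells of HK2, a line of immortalised human kidney tubule cells. Both lost their endogenous VHL to the same CRISPR guide and both carry a VHL transgene that is expressed while doxycycline (dox) is present. The 8 libraries compared here are the 4 replicates of MUT10 and the 4 replicates of MUT35 with dox, chosen by their sample names from the 24 libraries of the series, so that VHL was being expressed in every one of them. The labels give these libraries the genotype WT and the treatment dox on. The other libraries are the same clones after dox withdrawal and the clone WT8 in both dox states. WT8 is described as keeping its endogenous VHL and as carrying the dox-inducible VHL too. The sources differ on WT8, since the methods list it with the clones mutated by that guide and the series text counts it as a knockout without dox. Each side of the comparison is 1 clone, so differences of the edit, of the transgene insertion and of the cell each clone grew from cannot be told apart. All cells were grown in RPMI with serum. Nothing in the sources says whether the 4 replicates of a clone were separate cultures, so p-values measure only the spread between these libraries.

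VHL is the substrate-binding subunit of a ubiquitin ligase that also holds elongins B and C, CUL2 and RBX1. With oxygen present, the EGLN prolyl hydroxylases mark the alpha subunits of the hypoxia-inducible factors (HIF), HIF1A and EPAS1 (also called HIF-2 alpha), and the ligase sends them for degradation. Loss of VHL leaves HIF active and raises genes of glucose uptake, glycolysis, angiogenesis and matrix modification, and it is the founding event of most clear cell renal carcinomas. Putting VHL back is the usual control for such a knockout, and a pair of restored clones shows how far clones of the same intended genotype differ.

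The guide that made both clones is shown because it fixes where the endogenous gene was cut. It is printed 5′ to 3′ with the PAM that follows it in the genome in capitals. 
VHL sg6: cgcgcgtcgtgctgcccgtaTGG
 The guide matches the + strand of hg38 at chromosome 3 from 10142089 to 10142108, in the coding part of exon 1 of VHL (ENSG00000134086). The gene runs on chromosome 3 from 10141778 to 10153667 in the GENCODE annotation.

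VHL RNA was high in all 8 libraries and higher in MUT10. Levels are given as CPM, the count of a gene relative to its library's size after TMM scaling. VHL stood at 370.5, 386, 400.4 and 369 CPM in the 4 MUT10 libraries and at 227, 267, 229 and 192 CPM in the 4 MUT35 libraries. The clones did not overlap, and the MUT35 libraries spread more widely than those of MUT10. The means were 381 ± 14.8 CPM (SD, n = 4) in MUT10 and 229 ± 30.8 CPM (SD, n = 4) in MUT35, a 1.67-fold difference (log2 fold change 0.74, standard error (SE) 0.077, adjusted p = 1.38e-08; all adjusted p-values are from the quasi-likelihood test of edgeR with Benjamini-Hochberg adjustment). The 2-sided exact permutation test of the means gave p = 0.029, and no smaller p is possible with 4 libraries a group. After withdrawal the same clones stood at 30.0 ± 3.08 and 18.2 ± 0.359 CPM (SD, n = 4), so VHL was on in every library of this comparison. WT8 with dox was at 220.2 ± 15.1 CPM (SD, n = 4), near MUT35. It carries the inducible VHL as well, and without dox it was at 30.0 ± 3.12 CPM (SD, n = 4). Its level with dox is therefore not that of the endogenous gene alone. Because these are bulk samples, fewer cells with an RNA and less of it per cell cannot be told apart. One value is given per gene symbol, and transgene and edited endogenous transcripts are not separated.

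**Figure D1:**
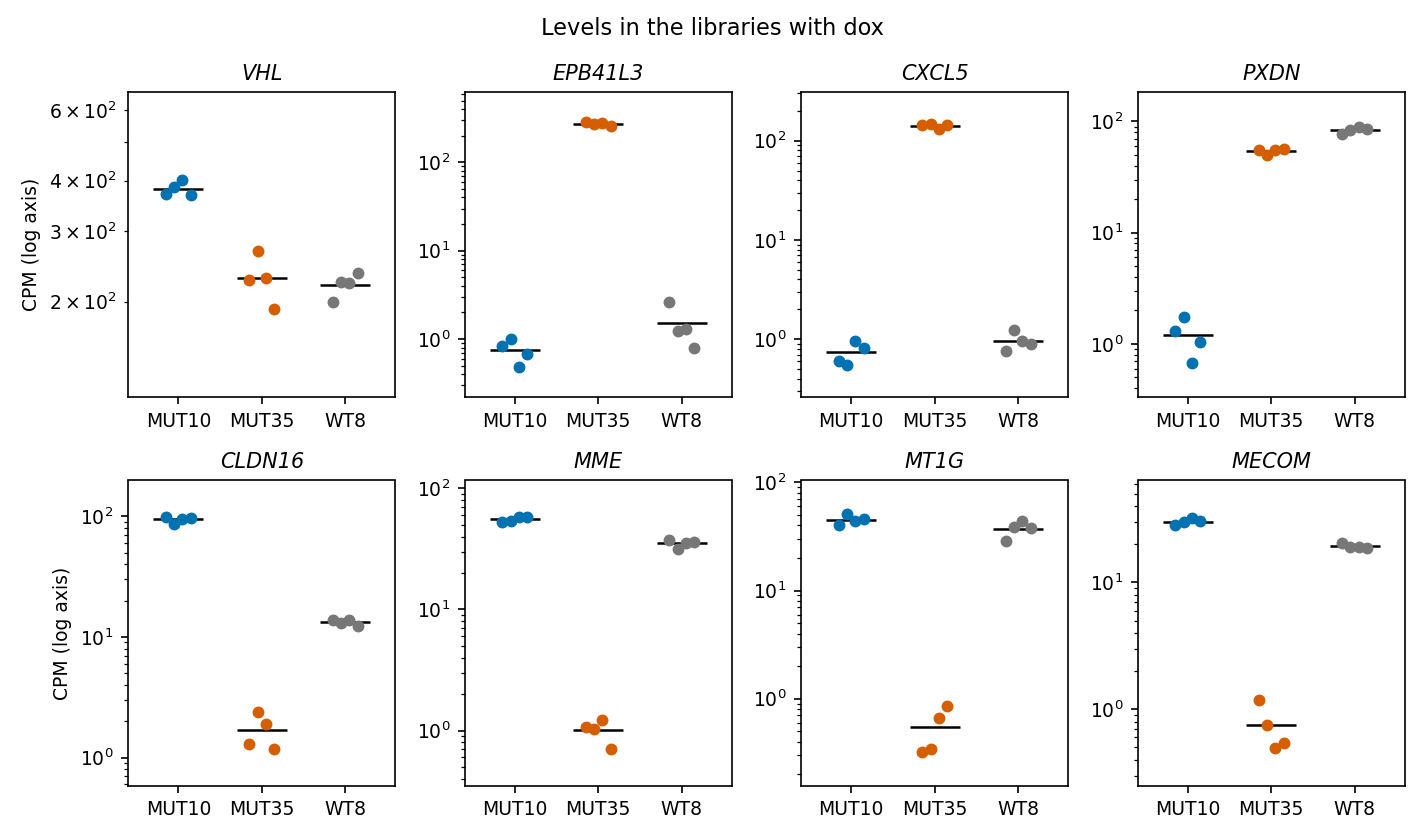
CPM (vertical log axis) of 8 genes in each library with dox, by clone (horizontal axis). Points are the 4 libraries of a clone and bars their means. MUT10 libraries lie above MUT35 libraries for VHL, CLDN16, MME, MT1G and MECOM and below them for EPB41L3, CXCL5 and PXDN, while WT8 lies near MUT10 for some genes and near MUT35 for others.

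Library totals of the 8 libraries ran from 8259517 to 14570609 counts, which puts the level of 3 counts between 0.206 and 0.359 CPM. In a multidimensional scaling of the 8 libraries the first dimension held 65.9% of the variance and separated the clones. MUT10 replicate 2 stood apart from the others in its trend of expression with the GC content of transcripts. Its slope was -0.027 log2 units per 10 percentage points of GC, against -0.322 to -0.185 in the other 7 libraries. Replicate 2 had the flattest slope in MUT35 and in WT8 with dox too, at -0.185 and -0.109. Counts of calls with dox are given without it as well, those of the gene groups at the end of their account. No 2 libraries of a clone were as alike as sampling noise (chi-square per gene 1.92 to 15.4). Some kidney genes were present in both clones. PAX8, a transcription factor of kidney epithelium, and the epithelial genes KRT18 and EPCAM were above 50 CPM in each. HNF4A, also a kidney marker, had no count in either clone. PAX2 was at 0.0459 CPM in MUT10 and 0.138 in MUT35, and CDH1 at 0.0841 and 0.913 CPM. Of 10 proximal tubule markers, 3 were above 1 CPM on average in MUT10 and 2 in MUT35. DPP4 was at 72.9 and 70.7 CPM and GGT1 at 22.7 and 19.6 CPM. LRP2, SLC22A6 and SLC22A8, which define mature proximal tubule, had no count in any of the 8 libraries. The labels also name lung as tissue. Of 9 lung epithelium markers SFTPA1, SFTPA2, SFTPC and NKX2-1 had no count, and all 9 together summed to 1.84 to 2.57 CPM in MUT10 and 1.73 to 2.38 in MUT35. The 6 endothelial markers summed to at most 0.821 CPM in any library. The 7 fibroblast markers summed to 45.4 to 50.9 CPM in MUT10 and 68.3 to 73.1 in MUT35, nearly all of it LUM and COL1A1, while COL1A2 had no count. The 6 leukocyte markers summed to 274 to 404 CPM in MUT10 and 157 to 186 in MUT35, nearly all of it CD68, a lysosomal protein, while PTPRC, the pan-leukocyte marker, was at or under 0.0689 CPM on average. The part of these marker differences in the results was not tested.

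A large share of the tested genes differed between the clones while VHL was expressed. Of 13900 genes tested, 6705 (48.2%) passed an adjusted p of 0.05, with 3248 genes (23.4%) higher in MUT10 and 3457 (24.9%) lower. Most of these differences were small, with a median absolute log2 fold change of 0.49 among the called genes. Over 2-fold, 530 genes were higher and 673 lower in MUT10, together 8.65% of the genes tested, and over 8-fold 114 were higher and 104 lower. In 6060 genes (43.6%) every library of one clone lay above every library of the other. Without MUT10 replicate 2 the calls were 3290 higher and 3313 lower, of which 529 and 707 were over 2-fold and 120 and 113 over 8-fold. The libraries of the clones then did not overlap in 7330 genes, 1 library fewer making this easier to meet. The balance between higher and lower calls turned with the scaling. DESeq2 called 3565 genes higher and 3185 lower, and RLE scaling 3617 and 3252, so that 52.8% and 52.7% of the calls were higher. When TMM factors were taken only from genes outside the chromosome windows described further on, a choice made after seeing the data, 2416 genes were higher and 4169 lower, so the share of calls that were higher fell from 48.4% to 36.7%.

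HIF and its regulators were compared first, since both clones had their VHL restored. Of 13 tested members of the VHL ligase and HIF core, VHL was called higher in MUT10, 3 were called lower, and 9 were not called. Without MUT10 replicate 2, CUL2 and RBX1 were called higher too. EPAS1, the HIF-2 alpha subunit, stood at 125, 137, 129 and 122 CPM in MUT10 and at 259.6, 294, 271 and 271 CPM in MUT35, so that every MUT10 library had less EPAS1 than any MUT35 library. The means were 128 ± 6.34 and 274 ± 14.2 CPM (SD, n = 4; log2 fold change -1.09, SE 0.06, adjusted p = 3.57e-14). WT8 with dox, at 261 ± 17 CPM, was near MUT35. EPAS1 lies on chromosome 2, where most genes were lower in MUT10. ARNT2, a partner of HIF alpha subunits, was at or under 0.291 CPM in each MUT10 library and at 4.1, 4.06, 4.27 and 3.19 CPM in MUT35 (log2 fold change -4.31, SE 0.32, adjusted p = 1.94e-11). EGLN2, one of the prolyl hydroxylases, was at 10.2 ± 1.41 CPM in MUT10 and 15.2 ± 1.05 CPM in MUT35 (SD, n = 4; log2 fold change -0.57, SE 0.1, adjusted p = 6.29e-05). It lies on chromosome 19, whose genes had a median log2 fold change of -0.34. HIF1A itself, at 2241 ± 98.8 and 2339 ± 59.6 CPM (SD, n = 4), had an adjusted p of 0.5, and ARNT, EGLN1, EGLN3, HIF1AN and the ligase subunits CUL2, RBX1, TCEB1 and TCEB2 had adjusted p-values of 0.13 to 0.87.

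HIF target genes were on balance lower in MUT10 with VHL restored. Of 44 tested targets, 22 were called lower, 5 higher and 17 neither, against 24.9% lower and 23.4% higher among all genes tested, and the median log2 fold change was -0.21 against 0.01 over all genes. Without MUT10 replicate 2 the counts were 21 lower and 5 higher. Outside the shifted chromosome windows, 13 of 32 targets were lower and 5 higher, and their median was -0.07. Of all genes tested there, 15.3% were lower and 27.9% higher. IGFBP3, a secreted binding protein of insulin-like growth factors, stood at 23.5, 25.4, 26.1 and 24.5 CPM in MUT10 and at 196, 206, 191 and 204 CPM in MUT35. It was thus 8.01-fold lower in MUT10, with no overlap (log2 fold change -3.0, SE 0.065, adjusted p = 9.11e-23). P4HA2, a collagen prolyl hydroxylase subunit, was at 50.6 ± 3.05 CPM in MUT10 and 114 ± 6.89 CPM in MUT35 (log2 fold change -1.18, SE 0.062, adjusted p = 1.36e-14), and STC2, a secreted stanniocalcin, at 39.4 ± 1.15 and 84.1 ± 2.7 CPM (log2 fold change -1.09, SE 0.055, adjusted p = 7.16e-15; SD, n = 4 for each). LOX, which cross-links collagen, was at 94.2 ± 3.34 and 146 ± 6.17 CPM (SD, n = 4; log2 fold change -0.63). IGFBP3 on chromosome 7 and P4HA2, STC2 and LOX on chromosome 5 all lie in shifted windows that were lower in MUT10. The medians of these stretches were -0.31 and -0.47. The 5 targets that were higher in MUT10 included PLIN2, a lipid droplet coat protein, at 189.7, 195, 199 and 177 CPM in MUT10 and 91.2, 92.1, 91.3 and 89.9 CPM in MUT35 (log2 fold change 1.06, SE 0.054, adjusted p = 6.73e-15). DDIT4, an inhibitor of mTORC1, was at 15.9 ± 1.71 and 9.26 ± 0.688 CPM (SD, n = 4; log2 fold change 0.78, SE 0.11, adjusted p = 1.48e-06). CA9, carbonic anhydrase IX, was low in both, at 0.599, 0.918, 1.26 and 1.12 CPM in MUT10 and 0.108, 0.138, 0.164 and 0 CPM in MUT35 (log2 fold change 3.14, SE 0.49, adjusted p = 8.23e-06). As a mean of log2 CPM over the 44 targets, the MUT10 libraries lay between 5.32 and 5.40 and the MUT35 libraries between 5.62 and 5.66, while WT8 with dox had a mean of 5.32.

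The largest differences were genes nearly silent in one clone. They were picked among genes that were called, had a mean of at least 50 counts over the 8 libraries and did not overlap between the clones. Among the 12 largest falls in MUT10 were cytoskeletal, chemokine, receptor and transporter genes. EPB41L3 (ENSG00000082397), a band 4.1 protein that links membrane proteins to actin, is on chromosome 18 from 5392381 to 5630700. It was at 0.838, 1.01, 0.484 and 0.67 CPM in MUT10 and at 284, 272, 278 and 258 CPM in MUT35 (log2 fold change -8.49, SE 0.15, adjusted p = 9.55e-25). MUT10 was low in all 4 libraries, and WT8, at 1.5 ± 0.801 CPM (SD, n = 4), was low too. CXCL5, a neutrophil chemokine, was at 0.599, 0.551, 0.969 and 0.82 CPM in MUT10 and at 143, 146, 129.9 and 145 CPM in MUT35 (log2 fold change -7.55, SE 0.11, adjusted p = 1.63e-26). CCL2, a monocyte chemokine, gave 2 counts in all in MUT10 and 690 in MUT35, a ratio of 304 (exact 95% interval 83.8 to 2510.0, counting error only). It was at 13.7, 13.3, 14.1 and 15.3 CPM in the MUT35 libraries. WT8 was low for both, at 0.965 ± 0.203 CPM for CXCL5 and 0.156 ± 0.16 CPM for CCL2 (SD, n = 4).

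FGFR2, a receptor of fibroblast growth factors, was at 0.719, 0.734, 0.388 and 0.596 CPM in MUT10 and 26.4, 26.2, 25.6 and 27.3 CPM in MUT35 (log2 fold change -5.42, SE 0.19, adjusted p = 3.51e-18). SLC38A5, an amino acid transporter, was 47.3-fold lower in MUT10 and TRABD2B, an inhibitor of WNT proteins, 69.4-fold lower. PSG5, a pregnancy-specific glycoprotein whose near-identical relatives make its count uncertain, was 36-fold lower. Further falls were TMEM154, BTBD11 and PPAPDC1A, 45.5-, 43.8- and 37.8-fold lower. PXDN, a peroxidase that cross-links basement membrane collagen, stood at 1.32, 1.74, 0.678 and 1.04 CPM in MUT10, 55.8, 50, 54.9 and 56.8 CPM in MUT35 and 84.5 ± 5.16 CPM (SD, n = 4) in WT8 (log2 fold change -5.50, SE 0.12, adjusted p = 1.73e-22). PXDN and BTBD11, which was at 21.5 ± 1.03 CPM in WT8, were thus genes that MUT10 lacked while WT8 and MUT35 had them. EPB41L3, CCL2, CXCL5, TMEM154 and PSG5 were high in MUT35 and under 2 CPM on average in the other clones.

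Among the 12 largest rises in MUT10 were a peptidase and a junction protein of kidney tubules, a metallothionein and a leukaemia-linked transcription factor. MME (neprilysin), a brush border peptidase of the proximal tubule, is on chromosome 3 from 155024124 to 155183704. It was at 52.6, 53.9, 58 and 58.1 CPM in MUT10 and at 1.08, 1.03, 1.23 and 0.701 CPM in MUT35 (log2 fold change 5.78, SE 0.14, adjusted p = 5.85e-22), a 54.8-fold gap, and WT8 was at 35.1 ± 2.45 CPM (SD, n = 4). CLDN16, a tight junction protein of the thick ascending limb, was at 99.2, 87, 95.6 and 97.2 CPM in MUT10 and at 1.29, 2.41, 1.89 and 1.17 CPM in MUT35 (log2 fold change 5.76, SE 0.12, adjusted p = 9.11e-23). Its WT8 mean, 13.3 ± 0.733 CPM (SD, n = 4), lay between the clones.

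MT1G, a metal-binding metallothionein, was at 40.5, 50.5, 43.5 and 45.5 CPM in MUT10 and at 0.324, 0.344, 0.657 and 0.857 CPM in MUT35 (log2 fold change 6.32, SE 0.23, adjusted p = 4.26e-18). MECOM (EVI1), a zinc finger transcription factor, was at 30.2 ± 1.69 CPM in MUT10 and 0.745 ± 0.316 CPM in MUT35 (log2 fold change 5.37, SE 0.18, adjusted p = 9.58e-19). ENG (endoglin), a co-receptor of TGF-beta family ligands, was at 12.8, 16, 13 and 12.5 CPM in MUT10 and 0.216, 0.0687, 0.411 and 0.234 CPM in MUT35 (log2 fold change 5.84, SE 0.23, adjusted p = 5.01e-17). All 3 were high in WT8 too, at 37.3 ± 6.39, 19.3 ± 0.79 and 15.4 ± 1.87 CPM (SD, n = 4). NETO1, an auxiliary subunit of glutamate receptors, led this list, 112-fold higher (log2 fold change 6.81, SE 0.31, adjusted p = 8.79e-16), and unlike those it was near 0 in WT8 (0.0501 ± 0.1 CPM). The other rises were TMEM246, CRISPLD1, PCDHGB5, CMBL, CRIP1 and C9orf84, between 29.4- and 68.3-fold. PCDHGB5 belongs to the gamma protocadherins, whose members share 3′ exons, so its count is uncertain. Over all 530 genes more than 2-fold higher in MUT10, the mean log2 CPM of WT8 was nearer to MUT10 for 385 and to MUT35 for 145. For the 673 genes over 2-fold lower, WT8 was nearer to MUT10 for 311 and to MUT35 for 362.

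Genes that were on in one clone and off in the other were counted separately. Off meant at most 0.5 CPM in every library of a clone and on a mean of at least 5 CPM. By this rule 16 genes were on in MUT10 alone and 11 in MUT35 alone, and without MUT10 replicate 2 these were 16 and 12. Of the 16, 11 were also off in every MUT35 library without dox, and of the 11, 9 were also off in every MUT10 library without dox. WT8 with dox had a mean of at least 5 CPM for 10 of the 16 genes on in MUT10 and for 1 of the 11 on in MUT35. The 6 with the highest CPM in MUT10 were TMEM246, CMBL, ENG, PCDHGB5, NETO1 and CRISPLD1. Those in MUT35 included TMEM154, CCL2, PPAPDC1A, TRABD2B and GABRE, of which GABRE, a GABA-A receptor subunit, gave 1 count in MUT10 and 383 in MUT35 (ratio 337, exact 95% interval 60.2 to 13400.0, counting error only).

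CG pairs in the promoters were counted. RefSeq promoter windows, 250 bases before to 50 after the start, were at hand for 19 of the 27 genes and held a median of 25 CG pairs, against 26 over the 10920 tested genes with a window. The median was 17.5 for the 12 genes on in MUT10 with a window and 41 for the 7 on in MUT35. A pair of promoters is shown, those of the genes with the highest CPM in each clone that have a window, because each gene is silent in the opposite clone. They are printed 5′ to 3′ on the strand of the gene, from GRCh38.p14, with CG pairs, the sites of DNA methylation, in capitals. 
TMEM246, on in MUT10, chr9:101486419-101486718, minus strand: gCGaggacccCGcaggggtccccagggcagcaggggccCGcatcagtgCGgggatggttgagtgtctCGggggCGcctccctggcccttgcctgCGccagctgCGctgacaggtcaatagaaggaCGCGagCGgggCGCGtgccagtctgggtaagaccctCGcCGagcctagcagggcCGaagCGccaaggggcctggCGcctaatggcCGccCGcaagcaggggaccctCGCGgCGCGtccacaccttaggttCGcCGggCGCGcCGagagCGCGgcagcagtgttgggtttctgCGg
TMEM154, on in MUT35, chr4:152679948-152680247, minus strand: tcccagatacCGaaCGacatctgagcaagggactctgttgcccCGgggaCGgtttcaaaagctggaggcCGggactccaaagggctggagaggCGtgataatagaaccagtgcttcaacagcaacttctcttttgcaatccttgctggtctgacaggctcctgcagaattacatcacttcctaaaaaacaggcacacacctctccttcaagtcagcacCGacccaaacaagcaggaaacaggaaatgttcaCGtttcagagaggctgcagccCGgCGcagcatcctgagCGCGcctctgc
 The TMEM246 window held 32 CG pairs, above the median of 17.5 of its group, and the TMEM154 window 12, below the median of 41 of its group. TMEM246, a transmembrane protein, was at 14.2, 15.8, 15 and 14.2 CPM in MUT10 and 0.324, 0.206, 0.164 and 0.156 CPM in MUT35 (log2 fold change 6.09, SE 0.21, adjusted p = 1.79e-18). TMEM154, another transmembrane protein, was at 0.479, 0.367, 0.194 and 0.298 CPM in MUT10 and 16.8, 14.6, 15.2 and 14.9 CPM in MUT35 (log2 fold change -5.51, SE 0.25, adjusted p = 6.41e-16). Methylation was not measured here.

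Part of the differences followed chromosomes. In windows of 20 Mb with at least 20 tested genes, the median log2 fold change between the clones was shifted in long unbroken stretches. A window was counted as shifted where its median lay beyond 0.2 in the same direction with dox and without dox, in libraries that the 2 comparisons do not share. By this rule 31 windows were lower in MUT10, 4 were higher and 118 were neither. The limit of 0.2 was set after the pattern had been seen, and the counts are a description with no test. Chromosome 2 was lower in MUT10 over its whole length. Of its 902 tested genes 642 (71.2%) were called lower and 41 (4.55%) higher, against 24.9% and 23.4% over all genes, and the median log2 fold change was -0.46 with dox and -0.45 without. Relative to the mean of WT8 with dox, the median over these genes was -0.567 to -0.467 in the 4 MUT10 libraries and -0.050 to -0.036 in the 4 MUT35 libraries, so MUT10 was the clone that lay apart. Chromosome 4 changed direction along its length. Its first 40 Mb, with 139 genes, had a median of 0.35, and from 60 Mb to the end, with 328 genes, the median was -0.50. Here MUT35 lay apart, at -0.505 to -0.492 in the first stretch and 0.413 to 0.489 in the second, relative to WT8.

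Chromosome 5 was unshifted in its first 100 Mb and had a median of -0.47 over 318 genes beyond it, of which 236 were called lower. MUT35 lay 0.491 to 0.509 above WT8 there, and MUT10 0.023 to 0.034 above. The first 60 Mb of chromosome 7 (220 genes, median -0.31) and all of chromosome 19 (992 genes, median -0.34) were also higher in MUT35 than in WT8, by 0.320 to 0.356 and 0.335 to 0.475. The first 20 Mb of chromosome 20 had a median of -0.29 over 94 genes, with MUT10 at -0.358 to -0.283. On chromosome 17, which was not shifted between the clones, both lay above WT8, with medians of 0.58 in MUT10 and 0.47 in MUT35. The 2854 genes of the lower windows, 20.5% of the genes tested, held 51.6% of all calls lower in MUT10, and 62.5% of them were called lower against 5.85% higher. In the unshifted windows, 27.9% of 10281 genes were called higher and 15.3% lower. These shares and the counts of windows belong to the main scaling. With TMM factors taken only from genes outside the shifted windows, 2416 of all genes tested were higher and 4169 lower. Windows were not counted again under that scaling. Over 2-fold in either direction were 13.1% of the genes in the lower windows and 7.43% of those in the unshifted windows. DNA copy number was not measured here, and its part in these shifts was not tested.

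**Figure D2:**
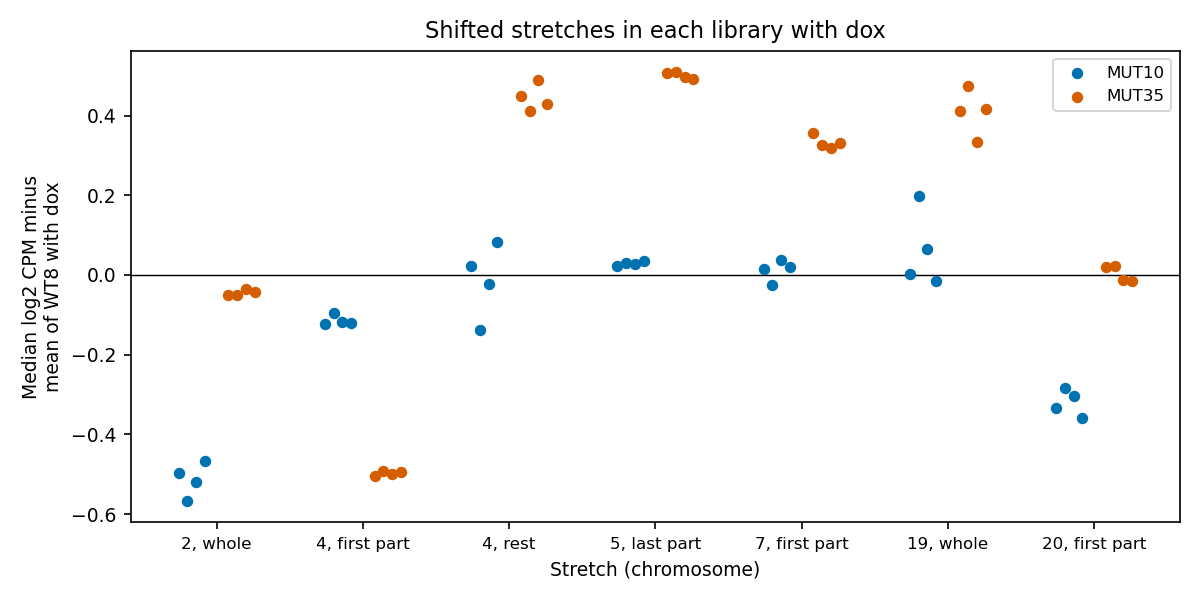
Median log2 CPM of the genes of each shifted stretch with at least 94 tested genes, minus the mean of WT8 with dox (vertical axis), in each library with dox, by stretch (horizontal axis). On chromosome 2 the MUT10 libraries lie at -0.567 to -0.467 and MUT35 near 0, and on chromosomes 4, 5, 7 and 19 MUT35 lies further from 0.

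Gene groups were described by counts beside all genes tested, of which 24.9% were called lower and 23.4% higher. For groups with 6 or more members in shifted windows, and for proximal tubule genes, the count outside them is given too. The background of that count is the unshifted windows, where 15.3% of genes were called lower and 27.9% higher. The 24 lists were chosen with earlier results of these data known, and no test was run on a list. Of the groups of at least 8 tested genes, keratins had the highest median and collagens the lowest. Keratins, the intermediate filaments of epithelia, were mostly higher in MUT10, with 6 of 8 called higher, 1 lower and a median of 0.86, none of them in a shifted window. KRT18 stood at 543, 659.5, 596 and 532 CPM in MUT10 and at 276, 287, 275 and 282 CPM in MUT35 (log2 fold change 1.05, SE 0.061, adjusted p = 1.38e-13). KRT7 was at 6.89 ± 1.4 and 1.12 ± 0.45 CPM and KRT8 at 111 ± 20.9 and 69.6 ± 6.54 CPM (SD, n = 4; log2 fold changes 2.59 and 0.67). The member that went the other way was KRT19, at 23 ± 2.62 CPM in MUT10 and 45.1 ± 2.43 in MUT35 (SD, n = 4; log2 fold change -0.97, SE 0.093, adjusted p = 2.73e-09). Of 8 neurofilament, vimentin and nestin genes 3 were called in each direction. VIM (vimentin) was at 2667 ± 181 and 1894 ± 58.2 CPM (SD, n = 4; log2 fold change 0.49), and the neurofilaments NEFL and NEFM were lower in MUT10 (log2 fold changes -3.22 and -1.92).

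Collagens differed in nearly every tested member, with 11 of 17 lower in MUT10 and 5 higher, a median of -0.73 and no member in a shifted window. The 3 fibroblast markers that could be tested were lower in MUT10 as well. They were COL1A1, itself a collagen, LUM and DCN, the last at 0.0658 CPM in MUT10 and 0.319 in MUT35. PDGFRB, which was too low to test, was at 0.335 CPM in MUT10 and 0.116 in MUT35. COL8A1, a short-chain collagen of vessel walls, was at 12.9, 14.1, 14.1 and 12.7 CPM in MUT10 and at 89.2, 85.5, 82 and 86 CPM in MUT35 (log2 fold change -2.67, SE 0.063, adjusted p = 4.52e-22). COL5A1, of fibrillar collagen, was at 24.2 ± 2.14 and 66.1 ± 5.22 CPM and COL4A1, of basement membranes, at 217 ± 8.24 and 369.8 ± 10.6 CPM (SD, n = 4; log2 fold changes -1.45 and -0.77). The higher members included COL6A1, at 131 ± 13.6 and 63.4 ± 4.56 CPM (SD, n = 4; log2 fold change 1.04, SE 0.092, adjusted p = 6.48e-10), and COL8A2, which was under 0.11 CPM in each MUT35 library and between 2.63 and 3.95 CPM in MUT10. Integrins and laminins split, with 10 of 24 higher and 8 lower, and outside the shifted windows 8 of 18 higher and 4 lower. LAMB3, a chain of laminin-332 of epithelial basement membranes, was higher in MUT10 (log2 fold change 2.03), while LAMA3, another chain of it, was lower (-0.45). ITGA6, which joins the receptor of that laminin, was higher in MUT10 by 1.16 on the log2 scale although it lies on chromosome 2. ITGB6 and ITGB8, which activate latent TGF-beta, were at 6.11, 3.12, 3.39 and 4.54 and at 14.2, 12.9, 12.6 and 15.4 CPM in MUT10. In MUT35 they were at 31.8, 28, 32.5 and 34 and at 62.9, 65.7, 67.5 and 60.3 CPM (log2 fold changes -2.90 and -2.21), far above every MUT10 library. Both genes lie in shifted windows that were lower in MUT10, on chromosomes 2 and 7.

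Matrix proteases and the plasminogen system had the highest share of members called, with 12 of 21 higher in MUT10 and 8 lower. MMP13, a collagenase, stood at 79, 80.2, 74.9 and 74.3 CPM in MUT10 and at 8.09, 5.91, 5.83 and 7.4 CPM in MUT35 (log2 fold change 3.52, SE 0.094, adjusted p = 9.79e-21), an 11.4-fold gap, with WT8 at 126 ± 6.03 CPM (SD, n = 4), above both. MMP14, its membrane-bound activator, was at 108 ± 8.63 and 49.2 ± 3.95 CPM, and ADAMTS12 at 15.4 ± 0.6 and 3.28 ± 0.55 CPM (SD, n = 4; log2 fold changes 1.13 and 2.25). Among cadherins and factors of epithelial to mesenchymal transition, 6 of 16 were higher and 4 lower, and outside the shifted windows 4 of 10 were higher and 3 lower. CDH6, a kidney cadherin, was at 93.5, 86.7, 100.5 and 95.5 CPM in MUT10 and 300.1, 282, 319 and 297 CPM in MUT35 (log2 fold change -1.67, SE 0.054, adjusted p = 6.25e-19). FN1 (fibronectin) was higher in MUT10, at 3513 ± 166 against 2455 ± 92.1 CPM (SD, n = 4), although it lies on chromosome 2, and the epithelial splicing factors ESRP1 and ESRP2 were higher too (log2 fold changes 1.11 and 0.67).

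Cytokines and chemokines were lower in MUT10 in 8 of 20 tested members (40.0%, against 24.9% of all genes) and higher in 3 (15.0%, against 23.4%). Of the 20, 10 lay in shifted windows, and of the 10 outside 4 were lower and 1 higher. Besides CCL2 and CXCL5, TNFSF10 (TRAIL) was at 106 ± 6.03 CPM in MUT10 and 212 ± 2.3 in MUT35 (SD, n = 4; log2 fold change -0.99, SE 0.069, adjusted p = 4.48e-12). The 3 that were higher in MUT10 were IL6, IL18 and IL11. IL6 was at 79.4, 80.8, 80.9 and 73.1 CPM in MUT10 and 39.7, 46.9, 42 and 45.6 CPM in MUT35 (log2 fold change 0.85, SE 0.065, adjusted p = 4.37e-11), and IL18 and IL11 had log2 fold changes of 1.09 and 1.02. Interferon-stimulated genes were lower in MUT10 in 18 of 36 and higher in 2, with a median of -0.28. Outside the shifted windows 11 of 28 were lower and 2 higher. UBE2L6, which conjugates ISG15, was at 55.7 ± 1.74 and 79 ± 4.96 CPM (SD, n = 4; log2 fold change -0.50). IFI44L went the other way, at 56.2, 46.9, 55.7 and 58.9 CPM in MUT10 and 5.83, 5.98, 9.2 and 7.63 CPM in MUT35 (log2 fold change 2.92, SE 0.12, adjusted p = 1.36e-16). Of 18 genes of MHC class I presentation 3 were called in each direction, with ERAP2, a peptide-trimming peptidase, at 187 ± 10.3 and 325 ± 20.6 CPM (SD, n = 4; log2 fold change -0.80).

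Ligands of growth factor receptors differed in both directions. Of 10 tested EGF ligands and ERBB receptors 5 were lower and 2 higher. All 5 lower members were among the 7 that lay in shifted windows, and of the 3 outside none was lower and 1 was higher. AREG (amphiregulin) was 3.32-fold higher in MUT10, at 554, 569, 530.3 and 553 CPM against 171, 169.9, 150 and 174 CPM in MUT35 (log2 fold change 1.73, SE 0.052, adjusted p = 1.57e-19), although its stretch of chromosome 4 was lower. TGFA was lower, at 11.1 ± 0.768 CPM in MUT10 and 53.5 ± 1.19 in MUT35 (SD, n = 4; log2 fold change -2.27, SE 0.069, adjusted p = 1.72e-19), as was HBEGF (log2 fold change -0.85). Their receptor EGFR was at 364 ± 6.42 and 450 ± 17 CPM (SD, n = 4; log2 fold change -0.30). The TGF-beta, activin and BMP list had 20 of 40 genes lower and 8 higher, and outside the shifted windows 9 of 26 lower and 7 higher. TGFBI, a matrix protein induced by TGF-beta, was at 1035, 1250, 1109 and 1011 CPM in MUT10 and 2398, 2489, 2257 and 2474 CPM in MUT35 (log2 fold change -1.13, SE 0.066, adjusted p = 1.36e-13). ID2, an inhibitor of basic helix-loop-helix factors, and BMP2 were lower (log2 fold changes -1.16 and -1.29), while the receptor TGFBR2 was higher (0.60). TGFBI, ID2 and BMP2 lie in shifted stretches that were lower in MUT10, on chromosomes 5, 2 and 20. Of 30 WNT ligands, receptors and inhibitors 13 were lower and 6 higher, and outside the shifted windows 9 of 23 were lower and 4 higher. DKK1, a secreted inhibitor of WNT signalling, was at 109, 100.2, 102 and 115 CPM in MUT10 and 9.17, 7.97, 8.87 and 11.3 CPM in MUT35 (log2 fold change 3.52, SE 0.11, adjusted p = 1.38e-19). DKK3, of the same family, was higher as well (log2 fold change 1.49), while WNT5A, a ligand, and TCF7L1, a repressor of WNT target genes, were lower (-3.42 and -3.10).

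Kidney genes differed in both directions. Of 18 tested proximal tubule genes 9 were lower in MUT10 and 4 higher, and 22 of the 40 in the file were too low to test. Outside the shifted windows 7 of 14 were lower and 4 higher. MME, described above, was among the higher genes. HAVCR1 (KIM-1), a marker of tubule injury, was at 288, 278, 289 and 277 CPM in MUT10 and 549, 602, 587 and 541 CPM in MUT35 (log2 fold change -1.01, SE 0.056, adjusted p = 5.66e-14). SLC4A4, the basolateral bicarbonate transporter, was at 22 ± 2.37 and 37.1 ± 3.51 CPM (SD, n = 4; log2 fold change -0.74). HAVCR1 and SLC4A4 lie in shifted stretches that were lower in MUT10, on chromosomes 5 and 4. Of 20 kidney lineage transcription factors 8 were lower and 6 higher. LHX1 was higher in MUT10, at 42.4 ± 1.77 against 23.8 ± 1.97 CPM (SD, n = 4; log2 fold change 0.84). PPARGC1A, a coactivator of mitochondrial biogenesis, was at 16.2, 14.1, 15.9 and 15.6 CPM in MUT10 and 31.4, 30.2, 36 and 33.7 CPM in MUT35 (log2 fold change -1.09, SE 0.078, adjusted p = 9.66e-12).

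Positional and epigenetically controlled genes were called in both directions. Of 33 tested HOX genes 48.5% were called, near the 48.2% of all genes, with 13 lower in MUT10 and 3 higher. Of the 33, 18 lay in shifted windows, and of the 15 outside 7 were lower and 2 higher. HOXC10 was at 6.16 ± 0.561 CPM in MUT10 and 15.8 ± 0.34 in MUT35 and HOXC13 at 0.569 ± 0.0966 and 4.06 ± 0.586 CPM (SD, n = 4; log2 fold changes -1.36 and -2.83), while HOXB13 was higher (2.43). Of 17 imprinted genes 6 were lower and 5 higher. CDKN1C, a cell cycle inhibitor expressed from the maternal allele, was at 7.07, 6.33, 6.78 and 6.71 CPM in MUT10 and 29.9, 32, 23.9 and 30.1 CPM in MUT35 (log2 fold change -2.11, SE 0.11, adjusted p = 5.4e-15), and PEG10, expressed from the paternal allele, was at 688 ± 33.8 and 1443 ± 70.1 CPM (SD, n = 4; log2 fold change -1.07). The 9 tested clustered protocadherins, all in the shifted stretch of chromosome 5, had 4 lower and 2 higher members. PCDHB2 gave 61 counts in MUT10 and 1 in MUT35 (ratio 69.3, exact 95% interval 12 to 2780.0, counting error only). Of 8 metallothioneins 4 were lower and 3 higher. MT1X was at 96.7 ± 11.4 CPM in MUT10 and 224 ± 15.9 in MUT35 (SD, n = 4; log2 fold change -1.21, SE 0.087, adjusted p = 1.14e-11), opposite to MT1G. Reads of these near-identical genes can be split between copies, so both directions are uncertain. The 2 tested cancer-testis genes were not called.

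Metabolic and cell cycle genes moved little. Of 20 glycolytic genes 5 were higher in MUT10 and 2 lower, none over 2-fold. PKM, pyruvate kinase, was at 2758 ± 286 CPM in MUT10 and 1990.0 ± 10.2 in MUT35 (SD, n = 4; log2 fold change 0.47), and the 2 lower genes, the hexokinase gene HK2 and GPI (-0.65 and -0.49), were those in shifted windows. Of 70 genes of oxidative phosphorylation 20 were lower and 11 higher, and of the 52 outside the shifted windows 4 were lower and 11 higher. NDUFC1, a complex I subunit on chromosome 4, was at 26.9 ± 2.15 and 50 ± 2.32 CPM (SD, n = 4; log2 fold change -0.88), and NDUFAB1, on chromosome 16, at 42.6 ± 2.57 and 29.2 ± 1.79 CPM (log2 fold change 0.54). Of 54 mitosis and G2/M genes 21 were lower and 4 higher, with 10 of 41 lower and 4 higher outside the shifted windows. KIF20A, a mitotic kinesin on chromosome 5, was at 91.4, 94.5, 94.7 and 88.1 CPM in MUT10 and 166, 179, 173 and 199 CPM in MUT35 (log2 fold change -0.96, SE 0.054, adjusted p = 7.61e-14), and AURKA, a spindle kinase on chromosome 20, at 216 ± 5.27 and 189 ± 4.36 CPM (SD, n = 4; log2 fold change 0.19). Under the scaling by genes outside the shifted windows, the median turned from above to below 0 for the VHL ligase and HIF core, the cadherin list, integrins and laminins, MHC class I presentation and the cancer-testis genes, all of which had medians within 0.08 of 0. With that scaling the counts were 3 higher and 25 lower for HIF targets, 3 and 3 for glycolysis, 5 and 25 for oxidative phosphorylation, 1 and 31 for mitosis and G2/M, 2 and 8 for imprinted genes and 1 and 16 for HOX genes. Without MUT10 replicate 2 the counts were 7 higher and 1 lower for keratins, 2 and 3 for neurofilaments, vimentin and nestin, 6 and 5 for cadherins, 9 and 9 for integrins and laminins and 12 and 7 for matrix proteases. They were 3 higher and 7 lower for cytokines, 1 and 16 for interferon-stimulated genes, 5 and 12 for the WNT list, 3 and 9 for proximal tubule genes and 5 and 8 for kidney transcription factors. For HOX genes they were 2 higher and 13 lower, for imprinted genes 3 and 5, for glycolysis 6 and 2, for oxidative phosphorylation 14 and 20 and for mitosis and G2/M 4 and 17. Collagens, MHC class I presentation, metallothioneins, the EGF and TGF-beta lists, clustered protocadherins and cancer-testis genes had the same counts without it.

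The difference between the clones was largely there without dox too. Without dox 6482 genes (46.6%) were called between MUT10 and MUT35. Of the 6705 calls with dox, 4427 (66.0%) were called in the same direction without dox, which is 68.3% of the calls without dox, and 175 were called in the opposite direction. Without MUT10 replicate 2, 4369 were called in the same direction. Of the 1203 genes over 2-fold with dox, 981 (81.5%) were called in the same direction without dox and 17 in the opposite direction. Across the 13900 genes, which are not independent replicates, the log2 fold changes with and without dox had a Pearson correlation of 0.81, and these comparisons share no library. The difference itself changed with dox (the interaction term of 1 model over all 24 libraries) in 1544 genes (11.1%), 613 toward MUT10 with dox and 931 toward MUT35, and in 1619 genes without MUT10 replicate 2. The dox states also differed in the trend of expression with GC content, with slopes of -0.342 to -0.027 in all 12 libraries with dox and -0.008 to 0.399 in the 12 without, and with the trend removed 2597 genes were called. HIF targets had the interaction called in 34 of 44 members, and in 33 without MUT10 replicate 2. Their median log2 fold change between the clones was -0.21 with dox and 0.37 without.

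EPAS1 was lower in MUT10 with dox and higher without it, at 371 ± 30.5 CPM in MUT10 and 303 ± 10.2 in MUT35 after withdrawal (SD, n = 4; log2 fold change 0.29, adjusted p of the interaction 5.33e-12). CA9 lay further apart without dox, to 24.1 ± 4.77 CPM in MUT10 and 0.0269 ± 0.0538 CPM in MUT35 (adjusted p of the interaction 0.000836). CDH6 and SERPINE2, an inhibitor of serine proteases, were called with dox and not without it. CDH6 was at 415 ± 22.2 and 433 ± 9.83 CPM without dox, and SERPINE2 at 357 ± 9.79 and 362 ± 13.3 CPM (SD, n = 4; log2 fold changes -0.06 and -0.02, adjusted p of the interaction 3.2e-14 and 7.57e-08). With dox SERPINE2 was at 124 ± 3.16 CPM in MUT10 and 199.7 ± 5.22 in MUT35 (SD, n = 4). GREM1, a secreted BMP antagonist, was slightly higher in MUT10 with dox, at 131 ± 5.93 against 113 ± 0.843 CPM, and lower without it, at 47.3 ± 4.01 against 135 ± 6.22 CPM (SD, n = 4; adjusted p of the interaction 1.66e-14).

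Among the genes tested, 7 were called in opposite directions and over 2-fold in both dox states. RSPO3, which enhances WNT signalling, was at 0.719, 0.734, 1.07 and 0.894 CPM in MUT10 and 2.81, 3.23, 2.55 and 2.8 CPM in MUT35 with dox, and at 9.65 ± 0.837 and 3.39 ± 0.79 CPM without (SD, n = 4; adjusted p of the interaction 2.46e-08). MUT35 was higher with dox and MUT10 without it. SLC2A2, a glucose transporter (GLUT2), had the same pattern, at 1.17 ± 0.301 and 3.57 ± 0.671 CPM with dox and 5.42 ± 1.2 and 1.51 ± 0.582 CPM without (SD, n = 4). EMP1, an epithelial membrane protein, was the reverse, with log2 fold changes of 1.12 with dox and -1.21 without.

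**Figure D3:**
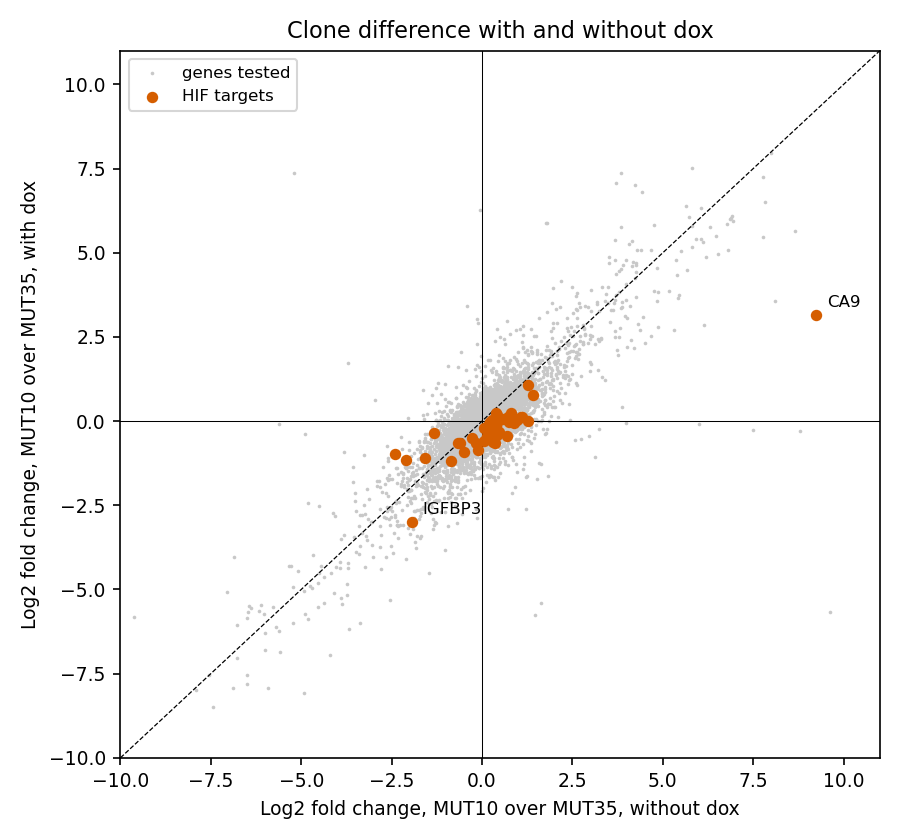
Log2 fold change of MUT10 over MUT35 with dox (vertical axis) and without dox (horizontal axis) for the 13900 genes tested, with HIF targets in orange and a dashed line where both are equal. Most HIF targets lie below the line, and CA9 lies far to the right of it at 3.14 with dox and 9.24 without.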

How the data were processed

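The authors extracted RNA with the RNeasy Mini Kit and sequenced poly(A) libraries. The labels name a KAPA stranded kit and the methods a Lexogen kit. Per the submitters' processing notes, reads were mapped to hg38 with Bowtie2 and RSEM, whose versions are not given in the sources used here, and the deposited values are RSEM expected counts, 1 per gene symbol, for all 24 libraries. How RSEM used strand is not stated. Counts were rounded to whole numbers here. Of 26475 symbols, 5712 had no count in any library, and 13900 passed edgeR's expression filter.

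Groups came from the sample titles. The main test was edgeR 4.0.16's quasi-likelihood test (R 4.3.3) with TMM scaling on all 24 libraries and 6 group means, contrasting MUT10 with MUT35 with dox, the same without dox, and their difference, with Benjamini-Hochberg adjustment over all genes tested and a threshold of 0.05. On simulated counts for this comparison, 36 of 50 genes changed 1.5-fold and 45 of 48 changed 2-fold were recovered, and 13 of 13449 unchanged genes were called. Few genes were changed there, in both directions and with no chromosome shifted. These rates therefore do not cover data in which 48.2% of genes were called. Intervals of count ratios are exact 95% binomial and cover counting error only. Symbols were placed by GENCODE 44, and promoters came from RefSeq on GRCh38.p14.

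The comparison, the gene lists and the rules were chosen with earlier results of these data known. Genes were named by rule: the 12 largest rises and falls among called, non-overlapping genes with a mean of at least 50 counts, up to 6 on/off genes a clone, up to 4 list members a direction by adjusted p, the VHL and HIF core, and up to 4 genes a direction that turned with dox. From these, genes were described by role. Marker genes were given besides. Mitochondrial DNA genes were left out, and some genes the rule picks are not reported here.

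The other settings tried were DESeq2 1.42.0, limma-voom 3.58.1, RLE and library size scaling, no filter, at least 10 counts in every library, only the 8 libraries, a replicate block, the GC trend removed and each library left out in turn. Scaling by, or counting over, genes outside the shifted windows was added after seeing the data, as were on/off and non-overlap counts without MUT10 replicate 2. Same-numbered libraries of the clones did not deviate together apart from a weak correlation of 0.174 for replicate 2, so the numbers were not used to pair them.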

Additional observations from a re-analysis of the deposited data

Results flagged for a closer look

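Among the genes named in the report, a library far from the other 3 of its clone appeared in 14 of 195 groups of 4 tested by Dixon's ratio, which chance alone gives in about 1 of 20 groups. In MUT10 these were ENG (16 CPM in replicate 2, others 12.5 to 13), COL6A1 (151 CPM in replicate 2, others 123 to 125), TNFSF10 (115 CPM in replicate 1, others 103 to 104), ERAP2 (171 CPM in replicate 2, others 190 to 194), SLC4A4 (25.6 CPM in replicate 4, others 20.7 to 21.1), HOXC10 (5.33 CPM in replicate 3, others 6.33 to 6.52), ID2 (89.9 CPM in replicate 2, others 74.5 to 77) and TCF7L1 (0.24 CPM in replicate 1, others 1.07 to 1.19). In MUT35 they were GABRE (8.31 CPM in replicate 1, others 7.7 to 7.8), EGLN2 (16.7 CPM in replicate 1, others 14.5 to 14.8), AURKA (196 CPM in replicate 2, others 186 to 187), KRT7 (1.79 CPM in replicate 4, others 0.825 to 0.971), KRT19 (48.7 CPM in replicate 2, others 43.6 to 44) and NEFM (7.01 CPM in replicate 4, others 6.15 to 6.24). Of the 8 in MUT10, 4 were in replicate 2, the library that stood apart in its GC trend.

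The difference between the clones itself differed between the dox states in 48 of the 110 genes named, as tested by the interaction of edgeR's quasi-likelihood fit (adjusted p from 1.66e-14 to 0.0427), against 11.1% of all genes tested. Of the 110, 3 were named because their difference turned with dox, and of the other 107 the interaction was called in 45. These were chosen from the differences with dox, so the counts describe the named genes alone. The fitted difference turned its sign between the dox states in 9 of them, was larger with dox in 28 and larger without dox in 11. With the GC trend removed, 47 of the 48 stayed called with the same sign, the exception being COL4A1 at 0.0839. The values that follow are the log2 fold change of MUT10 over MUT35 with dox minus the same without dox, so that a value below 0 is a difference that moved toward MUT35 with dox.

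Of the HIF system, the subunit EPAS1 had -1.39, and the difference was -0.38 for HIF1A, -0.96 for EGLN3, -6.11 for CA9, -1.07 for IGFBP3 and -0.95 for LOX. Smaller values were -0.64 for DDIT4, 0.49 for STC2 and -0.31 for P4HA2. In matrix and adhesion the values were -0.95 for FN1, -1.61 for CDH6, -0.79 for COL8A1, -0.68 for COL5A1 and 0.30 for COL4A1. The laminin chain had -0.28 for LAMA3, and the matrix enzyme and the TGF-beta-induced protein had 0.95 for PXDN and 0.57 for TGFBI. The protease inhibitor had -0.67 for SERPINE2.

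Epithelial and filament genes had 1.92 for CLDN16, 1.82 for KRT7, -0.60 for KRT19, -1.30 for NEFL and 2.33 for EMP1. Interferon and antigen genes had -0.55 for UBE2L6, 0.85 for IFI44L and -0.35 for ERAP2, and cytokines had 1.75 for IL11, -0.77 for IL18, -0.54 for IL6 and -0.50 for TNFSF10. Growth factors, their receptors and inhibitors had -1.55 for FGFR2, 1.18 for HBEGF, -0.36 for TGFA, 1.72 for GREM1, 1.57 for DKK1 and -3.23 for RSPO3. Kidney genes had -0.68 for HAVCR1, -1.05 for PPARGC1A, -0.64 for SLC4A4, -3.46 for SLC2A2 and 0.52 for LHX1. The others were -1.43 for PSG5, 2.40 for NETO1, 1.69 for MECOM, -0.63 for NDUFC1, -0.83 for HOXC10, -0.62 for MT1X and -0.52 for CDKN1C.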

How the results depend on the processing

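VHL stayed called (log2 fold change 0.66 to 0.82 over all alternatives), and each named gene had the same direction under DESeq2, limma-voom, RLE and library size scaling. The count of called genes stayed near that reported, at 6680 to 6869 with these, but more genes were higher than lower under DESeq2 and RLE, and with the GC trend removed (4077 higher, 3661 lower). Leaving out each library in turn gave 6128 to 6603 called genes. With at least 10 counts in every library of the comparison, 217 genes were over 2-fold higher and 356 lower. By construction this filter drops genes that are low in either clone. With the GC trend removed the interaction was called in 2597 genes, and the cause was not tested. Counting only genes outside the shifted windows, by construction fewer genes, left 1575 lower calls, 363 over 2-fold lower and 2643 in the same direction without dox. Replicate numbers gave no pairing common to all, with correlations of -0.048, 0.174, -0.050 and -0.022 between same-numbered libraries. The value for replicate 2 was the highest of any pair across the clones. A fit with the numbers as a replicate block called 3269 genes higher and 3497 lower. Of 192 named genes beside VHL, 142 could be run under each of the 18 alternatives, and 122 of these kept their direction and side of the threshold in each. Over the alternatives each could be run under, 170 of the 192 did so, 17 missed the threshold in at least one, 3 passed it newly, 2 that were not called changed sign, and no called gene reversed. Counts near 3 in a library limit the genes listed as off, and 4 libraries of 1 clone each limit what the difference can be ascribed to.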

Other observations

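Among the 27 genes that were on in one clone and off in the other, some were on in a single clone of the 3. The genes given here were chosen after their values were seen. GPC5, a glypican of the cell surface, had a mean of 6.66 CPM in MUT10 with dox, 0.0614 in MUT35 and 0.267 in WT8, and FGF13, an intracellular relative of fibroblast growth factors, had 8.15, 0.0475 and 0.0725 CPM. Without dox GPC5 was at 8.93 CPM in MUT10 and 0.0271 in MUT35. PRIMA1, which anchors acetylcholinesterase to membranes, and GABRE were on in MUT35 alone, with PRIMA1 at 0.0529 CPM in MUT10, 6.78 in MUT35 and 0.226 in WT8.

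DSC3, a desmosomal cadherin of stratified epithelia, was the gene of the 27 with the highest level in WT8, at 40.5 CPM, against 5.39 CPM in MUT10 and 0.198 in MUT35. CYTL1, a small secreted protein, was at 20.2 CPM in WT8, 7.66 in MUT10 and 0.153 in MUT35. PHF11, a zinc finger protein, was the 1 gene on in MUT35 that had a WT8 mean of at least 5 CPM, at 0.131 CPM in MUT10, 6.87 in MUT35 and 9.65 in WT8. Without dox it was at 0.122 and 4.08 CPM in MUT10 and MUT35. Means are over 4 libraries. Adjusted p-values and intervals given for genes chosen as on and off come from the libraries that chose them. They are therefore no independent test of those genes.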
